A study of Rattus with 4 samples.

Results

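U1 snRNP, the particle that recognises 5' splice sites, is built from U1 small nuclear RNA, a ring of Sm proteins and the U1-specific proteins U1-70K, U1-A and U1-C. LUC7-like proteins are related to yeast Luc7p, a U1 component, and associate with U1 at the 5' splice site. RBM25 is itself a U1-associated splicing regulator, and is known to bind LUC7L3. The genes described here encode U1-specific and LUC7-like proteins: Snrnp70 (U1-70K), Snrpa (U1-A), Snrpc (U1-C), Luc7l, Luc7l2 and Luc7l3. What was measured is RNA and not protein, in peaks assigned to these genes on the sense or the antisense strand.

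The peaks were those whose assigned gene was 1 of these 6 names in the peak list of either RBM25 immunoprecipitate (IP). There were 63 such peaks among 10804 peaks of 1914 genes, 21 of the 2696 in replicate 1 and 42 of the 8108 in replicate 2. The series has 4 samples of H9C2, a line of embryonic rat heart with myoblast features: 2 RBM25 IPs, which have the lists, and 2 inputs, which were not analysed here. Cells of all 4 were irradiated with ultraviolet light, and RNA was cut with micrococcal nuclease. A part of the study overexpressed RBM25. Whether the IP cells did, which antibody was used and whether the replicates were separate cultures are not stated by the labels. There is no contrast between conditions in these lists, and no test was made on these 6 genes.

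Values are tags, the signal that the deposited lists give to each peak. A tag value is per 50-nt bin, and in peaks of more than 1 bin it is the mean over bins. Tags were not scaled for depth, so tag numbers of the lists are set side by side as they stand. Where a peak is given 2 tag values, the first is that of replicate 1 and the other that of replicate 2. Over all peaks of a list the median was 24 and 26 tags, the lowest value 19 and 20, and the 90th percentile was 39 and 47. Library depth is unknown. Of 10 muscle and myoblast genes, Cald1, Tpm1 and Myh9 had peaks in both lists and Vim and Acta2 in replicate 2 alone; Des, Tpm2, Myog, Ttn and Nkx2-5 had none, and a peak list does not measure expression.

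Of the 6 genes, 4 had a peak in the replicate 1 list, where 3.70% of protein-coding genes had one, and 3 in the replicate 2 list, where 7.32% did. Luc7l2, Luc7l3 and Snrnp70 had peaks in both lists (3 of 6, against 3.34% of protein-coding genes). Each of these 3 also held a peak at the same position and strand in both lists, called shared here (2.64% of protein-coding genes). All 3 had a shared sense peak (1.85% of protein-coding genes), and Luc7l2 and Luc7l3 also had a shared antisense peak (2.12%). Luc7l had 1 peak, in replicate 1. Snrpa and Snrpc had no peak in either list. Genes with little RNA in these cells count in these percentages, so they are not a measure of preference.

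Luc7l2 carried most peaks, 11 in replicate 1 and 17 in replicate 2. Luc7l3 had 8 and 9. Snrnp70 had 1 and 16. Luc7l3 thus lay below Luc7l2 in both lists, while the place of Snrnp70 changed with the list: below Luc7l3 in replicate 1 and above it in replicate 2. In replicate 1, 24 genes had more peaks than Luc7l2 and 43 had more than Luc7l3, among 922 genes with a peak. In replicate 2, 56 genes had more than Luc7l2, 64 had more than Snrnp70 and 175 had more than Luc7l3, among 1819.

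**Figure D1:**
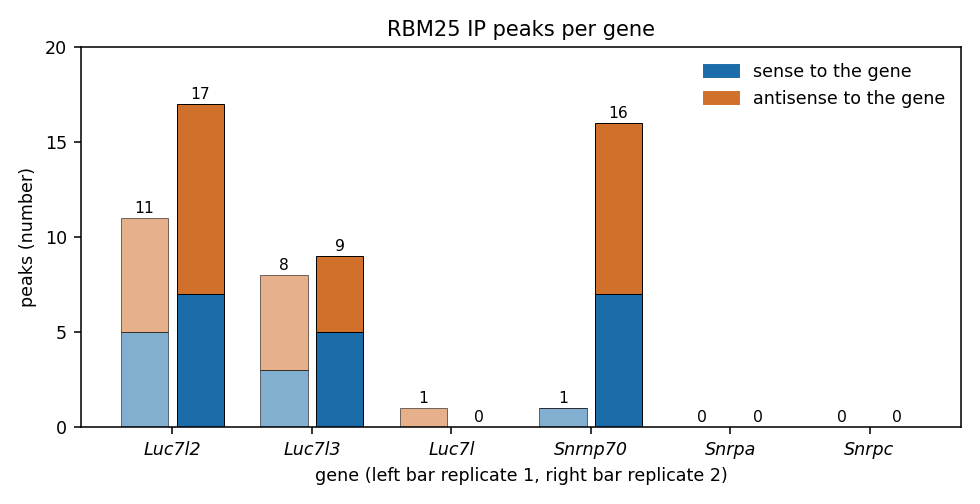
Number of RBM25 IP peaks for each gene, with replicate 1 in the left (pale) bar and replicate 2 in the right bar, split by strand relative to the gene. Luc7l2 and Luc7l3 have peaks on both strands in both lists, Snrnp70 goes from 1 peak to 16, Luc7l has 1, and Snrpa and Snrpc have 0.

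Luc7l3 encodes the LUC7-like protein that was found with RBM25, a protein with an arginine- and serine-rich tail. Its 17 peaks lay in 7 bins, whose starts spanned 1900 nt of chromosome 10 (mRatBN7.2; positions as the lists give them), the tightest group of the 3 genes with peaks in both lists. The gene reads from the minus strand. At its most upstream called bin, 79247300 to 79247350, the antisense peak reached 65 and 72 tags. The sense peak there was called in replicate 2 alone, with 73 tags, and 38 nt of the bin were coding sequence and 12 nt intron. This bin was high on the antisense strand in both lists and, on the sense strand, not called in replicate 1.

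At 79246450 to 79246500 both strands were called in both lists. The sense values were 32 and 71 tags. The antisense values were 46.5 and 93, the highest Luc7l3 value. Replicate 1 peaks on both strands ran on for a second bin, to 79246550, so their values are means over a wider stretch. In the bin common to both lists 17 nt were coding sequence and 33 nt intron. Further downstream, at 79245550 to 79245600, the sense peak had 23 and 30 tags and the antisense peak 32 and 28. At 79245400 to 79245450 the sense peak had 19 and 26 tags and the antisense peak 29 and 32. On the same strand and list these downstream bins had fewer tags than the upstream sites just described wherever the latter were called; the exception is the sense strand of replicate 1 at 79247300, which was not called. The downstream bins were called 4 times out of 4, on each strand in each list. A coding bin at 79246600 to 79246650 (20 tags, sense, replicate 2) and an antisense bin at 79246650 to 79246700 (33 tags, replicate 1) were each called once.

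Luc7l2 encodes a further LUC7-like protein. Its 28 peaks covered 13 bins over 26550 nt of chromosome 4, and the gene reads from the plus strand. At the most downstream bin, 67346650 to 67346700, sense tags were 45 and 20, and antisense tags 53 and 27. Both strands of this bin were higher in replicate 1, which was not the common direction: replicate 2 had more tags in 76.0% of all 1645 shared peaks. Nearly the whole bin, 46 of its 50 nt, was coding sequence.

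At 67342200 to 67342250 the order of the lists was the other way round. Sense tags were 30 and 59, and an antisense peak was called in replicate 2 alone, with 39. Replicate 1 instead had an antisense peak in the next bin, 67342250 to 67342300, with 19 tags, the lowest value that was called in that list. Around 67334800 to 67334900 the sense peak had 31 and 51 tags, each a mean over 2 bins. The antisense peak had 31 (1 bin) and 23.5 (a mean over 2 bins). The replicate 1 values were thus the same number over stretches of different length. Over the same 2 bins in replicate 2, the sense strand had more tags.

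The next sites lay upstream. At 67326000 to 67326050 antisense tags were 47 and 45, while the sense peak, with 61 tags, was called in replicate 2 alone and was the highest Luc7l2 value. Of this bin 35 nt were coding sequence and 15 nt intron. The sense peak at 67323400 had 25 tags in replicate 1, where it ran to 67323500, and 27 in replicate 2, where it ran to 67323550. The longer stretch held 111 nt of coding sequence and 39 nt of intron. Antisense peaks flanked its middle bin in both lists, with 24 and 24 tags at 67323400 to 67323450 and 30 and 48 at 67323500 to 67323550. The middle bin was therefore called on the sense strand alone in both lists.

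The remaining Luc7l2 bins had 29 tags or fewer. At 67339900 to 67339950 the sense peak had 21 and 29 tags, with an antisense peak of 23 in replicate 2. A wholly coding bin at 67334200 to 67334250 was called in replicate 2 alone, with 24 sense and 21 antisense tags. Antisense peaks at 67320100 to 67320150 and 67342300 to 67342350, each with 21 tags, were also in replicate 2 alone. No sense peak of Luc7l2 lay mostly in intron in either list. Antisense peaks are annotated as antisense alone, without exon or intron shares.

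**Figure D2:**
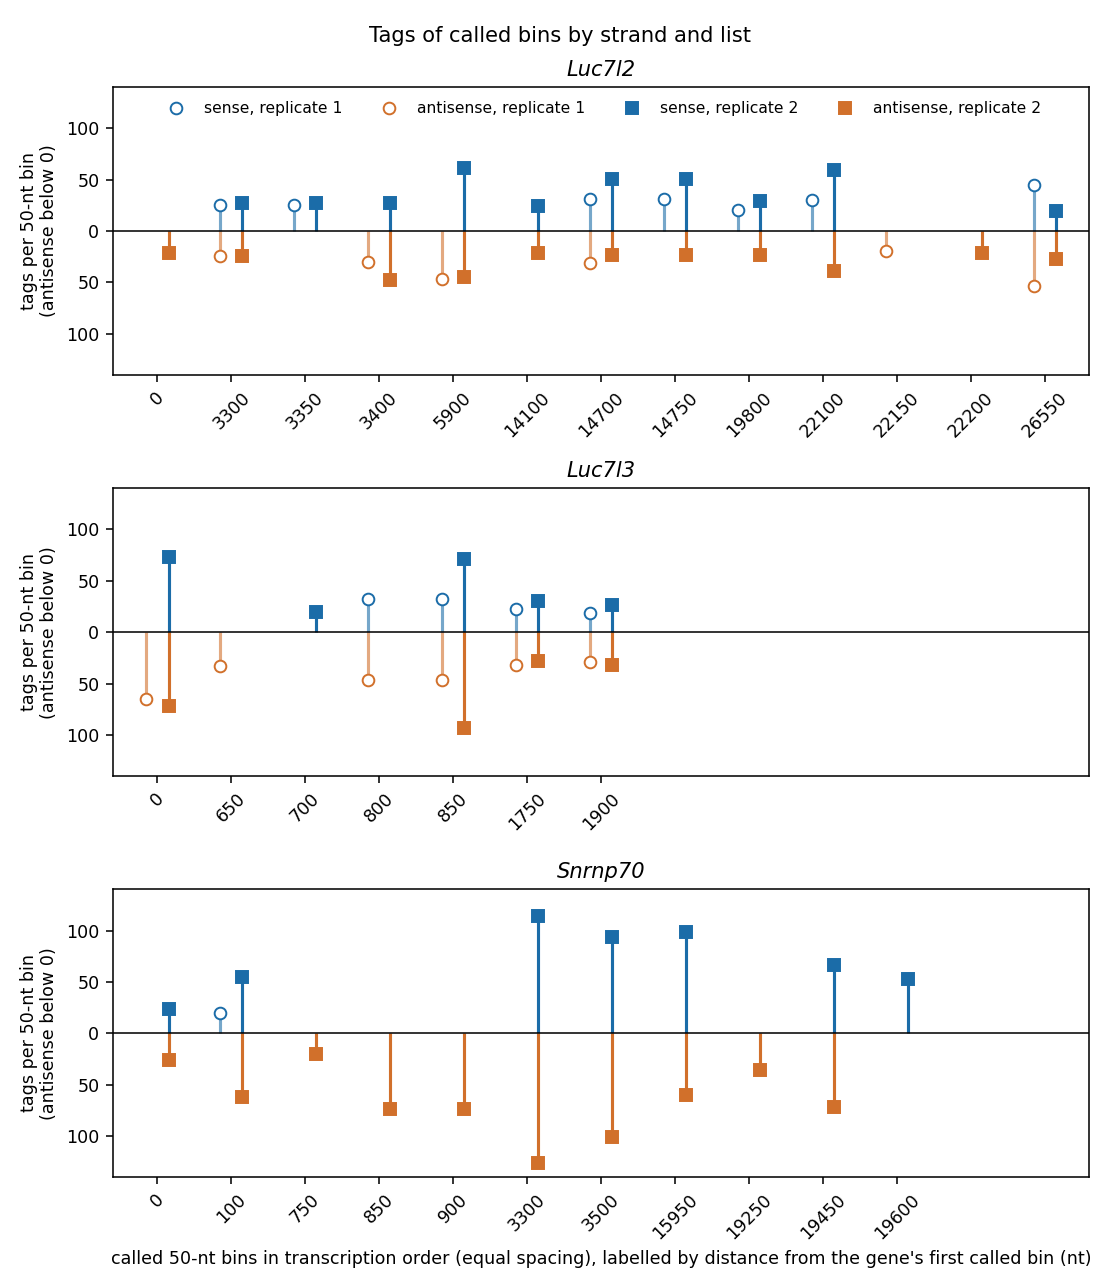
Tags of every called 50-nt bin of Luc7l2, Luc7l3 and Snrnp70, with the sense strand above 0 and the antisense strand below it, open circles for replicate 1 and filled squares for replicate 2. A peak of more than 1 bin is drawn at its mean in each of its bins. Bins are equally spaced in transcription order and labelled by distance in nt from the first called bin of the gene; a missing symbol is a bin not called. The 2 LUC7-like genes have symbols of both lists at most bins, and Snrnp70 has 1 replicate 1 symbol, 20 tags at the bin 100 nt from its first.

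Snrnp70 encodes U1-70K, which holds on to a stem-loop of U1 RNA and is a contact point for SR proteins. It had 1 peak in replicate 1. This was a sense peak of 20 tags on chromosome 1 at 95876150 to 95876200 (minus-strand gene), in a bin with 9 nt of 5' UTR and 41 nt of intron. The same bin had 55 sense and 62 antisense tags in replicate 2. It was the only place where Snrnp70 was called in both lists, and the replicate 1 value was 1 tag above the lowest that list called.

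In replicate 2 the gene had 16 peaks over 19600 nt. Their tags ran from 20 to 126 with a median of 64, against 26 for the list, and 12 of the 16 were above its 90th percentile. The highest were at 95872950 to 95873000, with 114 tags sense and 126 antisense, in a bin of 15 nt coding sequence and 35 nt intron. The neighbouring site at 95872750 to 95872800 had 94 sense and 101 antisense tags, with 43 nt of coding sequence and 7 nt of intron. At 95860300 to 95860350 the sense peak, with 99 tags, stood above the antisense peak, with 60. The 126-tag peak ranked 28 among all 8108 peaks. These high bins were called on both strands and had no replicate 1 peak on either.

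Further downstream, Snrnp70 had wholly coding bins at 95856800 to 95856850, with 66 sense and 72 antisense tags, and at 95856650 to 95856700, with 53 sense tags. Antisense peaks without a sense partner had 74 tags at 95875350 to 95875450, 36 at 95857000 to 95857050 and 20 at 95875500 to 95875550. The most upstream bin, 95876250 to 95876300, was wholly 5' UTR and had 24 sense and 26 antisense tags. On the sense strand the 7 peaks thus included 2 in coding sequence alone, 4 across exon and intron and 1 in 5' UTR alone.

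The difference between the lists at Snrnp70 was set beside other genes, by limits chosen after its values were seen. Of 75 genes with at least 16 peaks in replicate 2, the median had 7 peaks in replicate 1, and Snrnp70 and the RNA helicase gene Ddx1 (21 in replicate 2) had the fewest, 1 each. The limit of 16 is the count of Snrnp70 itself: with at least 10 peaks in replicate 2, 20 of 175 genes had 1 or 0 in replicate 1, and with at least 9, 33 of 212. Of 12 Snrnp70 peaks with at least 50 tags in replicate 2, 1 recurred in replicate 1. Over the whole list 30.1% of peaks with at least 50 tags did (213 of 707). At the same limit 3 of 4 Luc7l3 peaks and 2 of 3 Luc7l2 peaks recurred. In replicate 1, the list held 2 peaks of other genes within 100000 nt of the Snrnp70 bins, both in Tulp2 and both shared. The replicate 2 list held 7 there, in Bax, Nucb1 and Tulp2, of which 2 recurred in replicate 1. Expression and library depth were not measured in these lists.

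Luc7l encodes another LUC7-like protein. Its peak in replicate 1 was antisense, at chromosome 10, 15299300 to 15299350, with 20 tags. Replicate 2 had no Luc7l peak, and neither list had any other peak within 100000 nt of it. The value is close to the lowest called level.

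**Figure D3:**
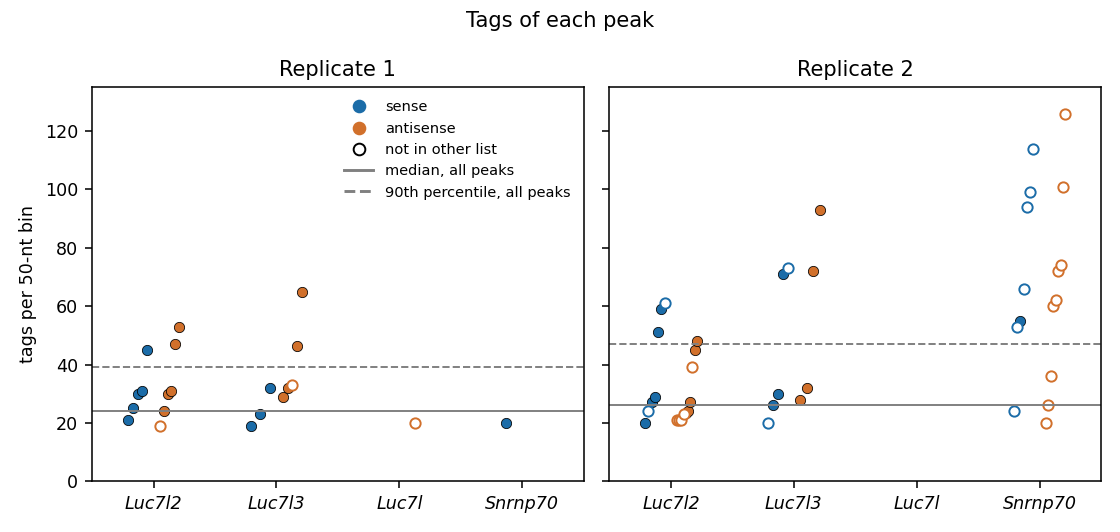
Tags per 50-nt bin of each peak of Luc7l2, Luc7l3, Luc7l and Snrnp70 in replicate 1 (left) and replicate 2 (right), with filled points for peaks found in the other list on the same strand. The solid line is the median of all peaks of that list (24 and 26 tags) and the dashed line their 90th percentile (39 and 47). Most Snrnp70 points of replicate 2 are open and lie above the dashed line.

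Most replicate 1 peaks of the 6 genes came back in replicate 2. Shared peaks were 18 of the 21 in the shorter list (85.7%, 95% Wilson interval 65.4 to 95.02), against 61.0% of all replicate 1 peaks. These were 10 of 11 in Luc7l2, 7 of 8 in Luc7l3, 1 of 1 in Snrnp70 and 0 of 1 in Luc7l. All 9 sense peaks of replicate 1 recurred, where 64.6% of sense peaks in the list did, and 9 of 12 antisense peaks recurred, where 60.0% did. Of the 42 peaks of replicate 2, 18 recurred in replicate 1 (42.9%, 29.1 to 57.8), against 20.3% of that list. They were 9 of 19 sense peaks (19.9% in the list) and 9 of 23 antisense peaks (20.9%). By gene they were 10 of 17 in Luc7l2, 7 of 9 in Luc7l3 and 1 of 16 in Snrnp70; without Snrnp70, a setting chosen after seeing the data, the share was 17 of 26 (65.4%). Intervals count peaks as if independent and cover counting error only. Peaks assigned to a gene, sense and antisense, lie in the same stretch of the genome and are not replicates.

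Between the 18 shared pairs, replicate 2 had more tags in 12, fewer in 5 and the same number in 1. The median ratio of replicate 2 to replicate 1 was 1.21, beside 1.24 over all shared peaks. In Luc7l3 it was 1.30, with replicate 2 higher in 6 of 7 pairs, and in Luc7l2 1.04, with replicate 2 higher in 5 of 10. The ratios ran from 0.44 to 1.97 in Luc7l2 and from 0.88 to 2.22 in Luc7l3, so these ranges overlapped. Across the 18 pairs Spearman's rho was 0.25 and Pearson's r 0.38, beside 0.43 and 0.39 over all shared peaks. By gene, rho was -0.10 in the 10 Luc7l2 pairs and 0.81 in the 7 Luc7l3 pairs. These values are a description of sites that share genes and libraries. The 18 pairs lay at 12 positions, since peaks on both strands of a bin count as separate pairs.

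**Figure D4:**
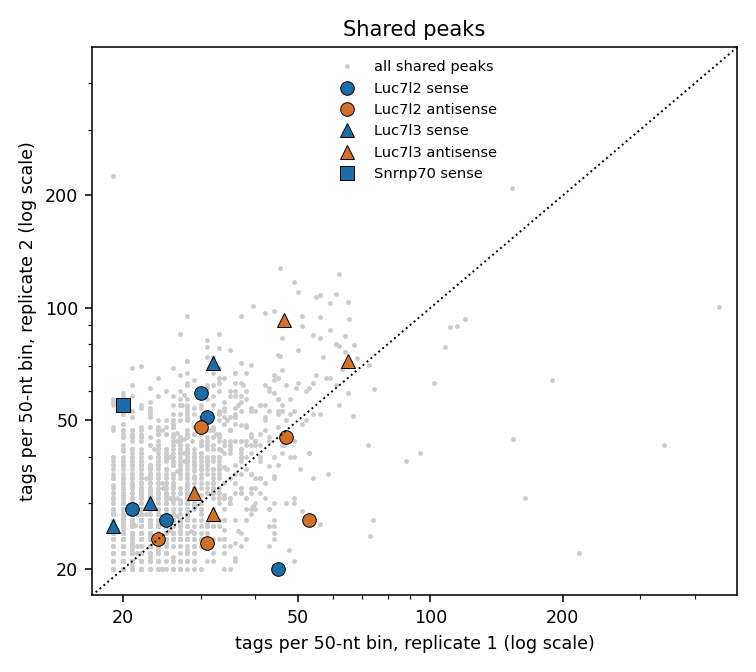
Tags in replicate 1 (horizontal) and replicate 2 (vertical) at peaks shared by position and strand, both on log scales, with grey dots for all 1645 shared peaks and larger symbols for Luc7l2, Luc7l3 and Snrnp70; the dotted line marks equal tags. Of the 18 larger symbols 12 lie above the line, and the Luc7l2 pair with 45 tags in replicate 1 and 20 in replicate 2 lies farthest below it.

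Both strands were called at many of the same places. Antisense peaks were 12 of 21 in replicate 1 (57.1%, 36.5 to 75.5), where they were 51.6% of the list, and 23 of 42 in replicate 2 (54.8%, 39.9 to 68.8), where they were 49.3%. The lists also hold intergenic peaks. Of genic peaks alone, those assigned to a gene, 53.7% and 50.7% were antisense. In replicate 1, 12 of the 21 peaks had a peak on the opposite strand in the same list (57.1%, against 46.2% of all its peaks), and in replicate 2 35 of 42 did (83.3%, against 70.0%). Among peaks with the same limits on both strands, the antisense peak was the higher in 4 of 4 pairs of replicate 1 and in 8 of 16 of replicate 2. Over all genic peaks it was the higher in 292 of 530 and 1431 of 2477 such pairs. Of the 4 replicate 1 pairs 3 lay in Luc7l3. A count by bin allowed differing limits. Each bin of a longer peak was given the mean of that peak, so 1 pair of peaks can count in more than 1 bin. By this count 7 bins of replicate 1 were called on both strands. Antisense tags were higher in 5 of them, sense tags in 1, and 1 was equal. Of 19 such bins in replicate 2, sense tags were higher in 10 and antisense tags in 9. In replicate 2 the sense peak was the higher in 5 of 6 Luc7l2 pairs and the antisense peak in 5 of 6 Snrnp70 pairs. The sense peak was the higher in 784 of the 2477 pairs of the list, so the Snrnp70 direction was the more common one. The median antisense share of the tags was 52.1% in the 6 Snrnp70 pairs and 43.3% in the 6 Luc7l2 pairs, beside 51.1% over the list. Of the 32 bins called in any of the genes, 6 were called on each strand in each list, 3 in Luc7l2 and 3 in Luc7l3. The same count was not made over all called bins, so whether it is unusual is not known.

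Sense peaks often ran over an exon edge, in these genes as in the whole lists. In replicate 1, 9 of 9 held both exon and intron sequence (100%, 70.1 to 100), where 67.8% of all sense peaks did (65.1 to 70.4). In replicate 2, 14 of 19 did (73.7%, 51.2 to 88.2), near the 71.2% of that list. Of the 5 that did not, 1 lay in Luc7l2, 1 in Luc7l3 and 3 in Snrnp70, and 4 were coding sequence alone. By the class that covers most of a peak, coding sequence held 8 of 21 peaks in replicate 1 (38.1%, against 24.2% of the list) and 15 of 42 in replicate 2 (35.7%, against 29.2%). Introns held 1 and 3 peaks (4.76% and 7.14%, against 14.3% and 14.9%). Of genic peaks alone, coding sequence held 25.2% and 30.0% and introns 14.9% and 15.3%. No sense peak of these genes was in a 3' UTR, the class of 0.371% of all replicate 1 peaks and 0.678% of all replicate 2 peaks. Antisense peaks are a class of their own and were not placed in exon or intron. They were 12 of the 21 and 23 of the 42 peaks, and they count in all these percentages. Which end of an exon a bin covers was not analysed here, so these shares do not place peaks at 5' splice sites.

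The same measures were set beside Rbm25, the SR protein (Srsf) genes and the hnRNP genes in the lists. In replicate 1, 13 of 14 Rbm25 peaks recurred (92.9%), 12 of 15 in Srsf genes (80.0%) and 17 of 30 in Hnrnp genes (56.7%). In replicate 2 the shares were 72.2%, 40.0% and 13.9%. The interval of the 6 genes overlapped those of Rbm25 and the Srsf genes in both lists. Against the Hnrnp genes (8.89 to 21.2% in replicate 2) it did not overlap in replicate 2, and in replicate 1 it did; the difference was not tested. Median tags were 30 in replicate 1 and 42 in replicate 2 for the 6 genes, 28 and 36.2 for Srsf genes, and 23 and 30.5 for Hnrnp genes. Without Snrnp70, the LUC7-like peaks had medians of 30.5 and 28.5.

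**Figure D5:**
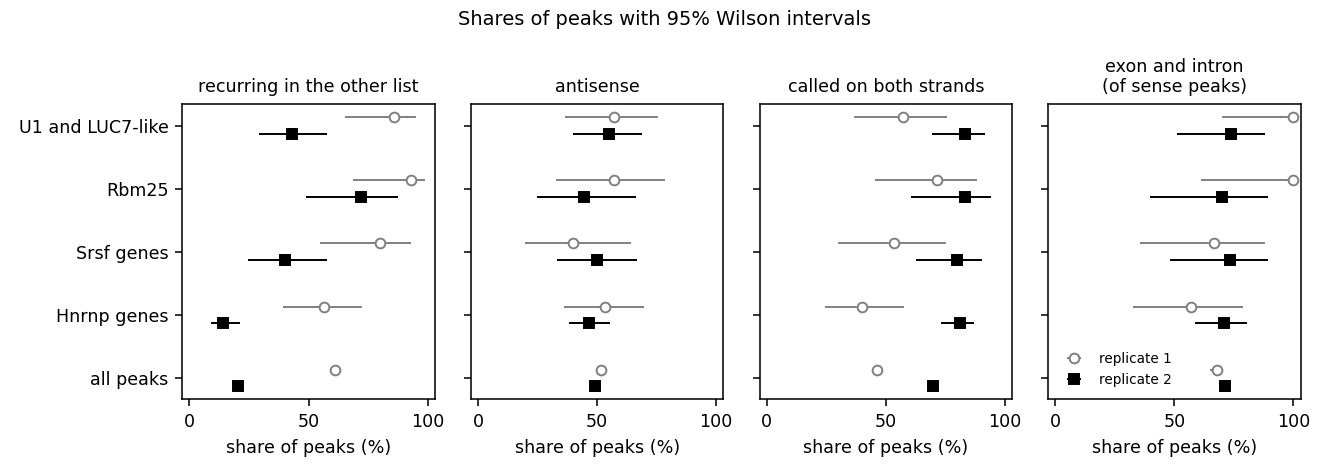
Share of peaks (%) that recur in the other list, are antisense, are called on both strands, and, among sense peaks, hold exon and intron sequence, for the 6 genes, Rbm25, Srsf genes, Hnrnp genes and all peaks; open circles are replicate 1, filled squares replicate 2, and bars 95% Wilson intervals that cover counting error only. Recurrence of the 6 genes was 85.7% in replicate 1 and 42.9% in replicate 2, against 61.0% and 20.3% of all peaks, and the intervals of the other shares overlapped those of all peaks.

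Peaks in the rest of the U1 machinery lay in U1-associated factors. Of 26 further genes for U1 Sm proteins, U1-associated factors, U11 proteins and the U2 relative of Snrpa, 2 were in the replicate 1 list (7.69%, against 3.70% of protein-coding genes), 6 in the replicate 2 list (23.1%, against 7.32%), and 2 held a shared peak (7.69%, against 2.64%): Rbm25 and Srsf1. None of 8 Sm protein genes (Snrpb to Snrpn), none of 7 genes of U11, the minor-spliceosome counterpart of U1, and not Snrpb2 had a peak; lists this short say little against percentages that low. Among 10 U1-associated factors and partners, Rbfox2, Ptbp1, Srrm1 and Ddx5 had peaks in replicate 2 alone. The SR protein gene Srsf1 had 1 and 3 peaks, with up to 24 and 37 tags. Ddx5, a helicase gene, had 10 replicate 2 peaks of 20 to 27 tags. Srsf1 and Ddx5 stayed below the highest Luc7l3 values of 65 and 93 tags; Rbm25 had up to 73 and 77.

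By the number of sense and antisense peaks in each list (4 counts, Euclidean distance over log2 of the count plus 1), the genes nearest to Luc7l2 were Cald1 (distance 0.46), LOC120097382 (0.49) and Ankrd11 (0.53). Luc7l2 had 5 sense and 6 antisense peaks in replicate 1 and 7 and 10 in replicate 2; Cald1, the caldesmon gene, had 6 and 7, then 9 and 9. The measure rests on 2 lists and does not use position or tags.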

How the data were processed

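Per the submitters' processing notes, HISAT2 and mRatBN7.2 were used; the labels used here state neither the caller of the peaks nor its filters or use of inputs. Tags are a signal as deposited by the authors, whole in 51-nt peaks and a mean over bins in longer ones. The deposited p-value of each peak was used only to keep, as an alternative, peaks at or below the median p of a list. Listed lengths are end minus start plus 1, but annotation shares in 51-nt sense peaks were whole fiftieths in 1949 of 1949 cases in replicate 1 and 6301 of 6301 in replicate 2, so bins were taken as 50 nt.

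Peaks were shared when they overlapped by a bin on the same strand. Genes were matched by symbol, or by a unique synonym, to a RefSeq name table (GRCr8, names alone): 1829 of 1914 names by symbol, 18 by synonym, 67 not; all 6 genes and all 26 of the further list matched; some genes first listed there are not reported here. The members and lists were chosen with earlier results of these data known, so counts stand beside those of all peaks or genes and no test was made. Named genes were the 6 members, genes of the further list with a shared peak, and the 3 genes nearest to the member with most peaks; the other genes named from that list, Ddx1, Ddx39b, U2af2, Tulp2 and the small nuclear RNA genes were named after their values were seen. The overlap rule was checked on simulated lists. Alternatives covered the p-value limit, overlap rule, strand, peak length, genes or lists left out, and coding at any overlap. Scripts ran in Python 3.11.15 with pandas 2.3.3, numpy 2.4.6, matplotlib 3.10.9 and scipy 1.17.1.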

Additional observations from a re-analysis of the deposited data

How the results depend on the processing

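No paired analysis was possible because inputs have no peak list here and the 2 IP lists form a single group. Of 44 values recomputed under alternatives, 41 stayed within the main interval, or within 1.5 times the main count, and 3 moved. Leaving out Luc7l2 or Snrnp70 had to lower the counts of genes from 3 to 2, which the limit of 1.5 takes as unchanged. All alternatives reuse the same peaks, so the tally does not measure stability. From single lists, the share of sense peaks with exon and intron sequence ran from 73.7 to 100% (82.1% over both lists), and the share of called bins with both strands from 38.9 to 67.9% (56.5% over both). The share of bins with both strands was not computed over all genes. Without Snrnp70, 65.4% of replicate 2 peaks recurred in replicate 1 in place of 42.9%. With peaks at or below the median p-value of their list, 2 genes in place of 3 had a shared peak, since the Snrnp70 peak of replicate 1 dropped out. At this limit 10 of 15 replicate 1 peaks recurred (66.7%, 41.7 to 84.8), in place of 85.7%. The share over all peaks was not computed at this limit. Without the limit it was 61.0%, so the excess over the list is not shown to hold there. A single list gives no recurrence and no count of genes in both lists, so leaving a list out was not run for these. The called minimum of 19 or 20 tags limits every absence: a bin or gene without a peak may lie just below it.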

Other observations

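The name table classes 1013 genes as small nuclear RNA genes, and 3 of them, all unnamed and all on chromosome 6, had peaks, 7 in all. LOC120093302 had a sense peak at 72211450 to 72211500 with 65 tags in replicate 1 and 104 in replicate 2. LOC120093346 had an antisense peak at 72205850 to 72205900 with 46 and 83 tags. LOC120093313 had an antisense peak at 72218800 to 72218850 with 37 and 32 tags and a sense peak of 24 tags in replicate 1 alone. The table does not say which small nuclear RNA these genes encode. Reads of multicopy RNAs can be split between near-identical genes, so these assignments are uncertain.

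By the same count of sense and antisense peaks per list as for Luc7l2, chosen here after the values were seen, the genes nearest to Snrnp70 were Ddx1 (distance 0.60), the RNA helicase gene Ddx39b (0.69) and U2af2 (1.00), which encodes the large subunit of the factor that binds the polypyrimidine tract. Ddx39b had 2 sense and 0 antisense peaks in replicate 1 and 6 and 7 in replicate 2, and U2af2 1 and 0, then 4 and 5.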
